A study of Homo sapiens with 16 samples.

Results

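PCDH20, NELL1 and NTRK2 were 3 of the 43388 genes in the expression table of hPSC-CMs kept in different media, and they encode an adhesion protein, a secreted growth regulator and a receptor. They were selected on their measured levels, because all 4 HPLM/B27 libraries lay below all 4 RPMI_glcM/B27 libraries, so their difference between these media is described here without a test. All 3 were among the 16122 genes tested, whose mean over the 16 libraries reached 1 TPM (transcript share per gene length, scaled to 1000000 per library).

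The cells were cardiomyocytes made by the GiWi protocol from WTC11, a wild-type human induced pluripotent stem cell line. Each of 4 groups had 4 libraries. One group was collected on Day 16 in standard RPMI/B27. The other 3 groups came from Day 16 cells moved into or kept in standard RPMI/B27, RPMI/B27 with 5 mM glucose (RPMI_glcM/B27) or human plasma-like medium with B27 (HPLM/B27) and collected on Day 30. The libraries were separate wells of a single differentiation of 1 line, so every p-value measures the spread between wells. The labels list 4 libraries per medium where the series description gives 3. The comparison of HPLM/B27 with RPMI_glcM/B27 asks what the plasma-like composition changes when glucose is set to a low level in RPMI as well. Depth and cell type were checked over the series: whole reads recovered from the table ranged from 7744768 to 16183655 per library, and the summed level of 9 cardiomyocyte markers from 12098 to 16354 TPM. The level of RNR1, which encodes the 12S rRNA of mitochondria, lay between 49.5 and 29276 TPM and was highest in replicates 3 and 4 of Day 30 RPMI/B27, so the results of the 3 genes that rest on those libraries, and the called pathway genes that depend on them, are also given without them.

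PCDH20 is a protocadherin outside the large gene clusters of that family. Protocadherins are single-pass membrane proteins whose cadherin repeats bind the same protein on a neighbouring cell in the presence of calcium, and they are known best for sorting neurons. NELL1 is a secreted glycoprotein with EGF-like repeats, known for promoting bone formation, where it acts with integrins at the cell surface. NTRK2 encodes TrkB, the receptor tyrosine kinase for the neurotrophins BDNF and NTF4. Ligand binding brings TrkB receptors together, they phosphorylate each other, and adaptors such as SHC1 carry the signal to the RAS and PI3-kinase pathways. NTRK2 also gives truncated receptors without the kinase, which a value per gene does not separate from the full-length form.

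PCDH20 lies on chromosome 13 (GRCh38, bases 61409685 to 61415849, minus strand). The study's qPCR primer pair for this gene matched that chromosome once per primer, and both primers lay in coding exon 2 of 2 in the GENCODE main transcript. The amplicon of 171 bases at chr13:61412087-61412257 is shown because it is the stretch by which this transcript can be measured independently of the RNA-seq. It is written along the transcript, with the forward primer and the reverse complement of the reverse primer in capitals:
PCDH20 amplicon: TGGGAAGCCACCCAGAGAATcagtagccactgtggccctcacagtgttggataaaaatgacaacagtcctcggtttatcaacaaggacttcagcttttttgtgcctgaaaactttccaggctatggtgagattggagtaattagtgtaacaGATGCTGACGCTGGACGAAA
Because the amplicon lies within a single exon, it does not separate cDNA from genomic DNA by size. The study's RNA purification included a DNase treatment on the column.

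NELL1 lies on chromosome 11 (GRCh38, bases 20669551 to 21575686), where its 906136 bases also hold LOC105376585, a gene with a mean of 0.159 TPM. NTRK2 lies on chromosome 9 (GRCh38, bases 84668522 to 85027054, plus strand). RefSeq start windows, each 250 bases before to 50 after a transcript start, were at hand for NTRK2 alone, which had 4. Each window held 300 bases, and together they show how unlike the annotated starts of NTRK2 are. Which of these starts the cells used was not measured, since the table gives a single value per gene. GC content was 50.0%, 74.7%, 63.7% and 48.3% in the order of their positions. Windows 2 and 3 in that order (GRCh38.p14, plus strand, chr9:84669783-84670082 and chr9:84670099-84670398) are printed with every match to GGGCGG (GC box) or TGACG (core of the cAMP response element) on either strand in capitals:
NTRK2 window 2: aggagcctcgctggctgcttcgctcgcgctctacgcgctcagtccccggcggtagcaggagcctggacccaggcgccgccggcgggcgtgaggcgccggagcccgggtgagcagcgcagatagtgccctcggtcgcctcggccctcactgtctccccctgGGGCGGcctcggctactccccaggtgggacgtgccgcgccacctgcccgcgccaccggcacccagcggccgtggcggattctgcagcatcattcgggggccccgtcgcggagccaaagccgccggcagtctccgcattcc
NTRK2 window 3: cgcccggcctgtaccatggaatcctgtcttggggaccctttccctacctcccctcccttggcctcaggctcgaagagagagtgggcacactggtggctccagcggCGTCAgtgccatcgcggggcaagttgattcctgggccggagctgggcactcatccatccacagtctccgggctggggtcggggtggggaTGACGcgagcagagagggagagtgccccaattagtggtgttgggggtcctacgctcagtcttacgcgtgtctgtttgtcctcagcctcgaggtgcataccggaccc
Window 2 held 1 GC box, as did window 1, and window 3 held 2 matches to TGACG. Of all 35116 windows of this length in the RefSeq table, 45.0% held GGGCGG and 24.6% held TGACG. None of the 4 NTRK2 windows held the E-box CACGTG, which was in 7.26% of all windows. The motif bound by the general factor TBP, written TATAAA, was likewise in none of the 4 and in 11.5% of all windows. The motifs overlap none of each other here, and a match is a match of letters.

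PCDH20 was the most abundant of the 3 genes. In Day 16 RPMI/B27 it measured 26.9, 19.9, 25.8 and 23.8 TPM in replicates 1 to 4, and in Day 30 RPMI/B27 69.5, 66.7, 35.0 and 36.8 TPM. In Day 30 RPMI_glcM/B27 it measured 95.8, 84.8, 79.2 and 71.8 TPM, and in Day 30 HPLM/B27 34.0, 40.8, 33.2 and 29.3 TPM. Every Day 30 library was above every Day 16 library, the RPMI_glcM/B27 libraries were the highest 4 of all 16, and HPLM/B27 lay between Day 16 and RPMI_glcM/B27. The means were 24.1 ± 3.08 (SD, n = 4), 52.0 ± 18.7, 82.9 ± 10.1 and 34.3 ± 4.76 TPM in the same order of groups. These values rested on 381 to 1825 reads per library, and by its mean over 16 libraries PCDH20 stood above 90.4% of the genes tested.

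NELL1 was expressed at a lower level. It measured 4.12, 4.24, 4.83 and 3.04 TPM on Day 16, and 6.82, 10.7, 5.18 and 4.15 TPM in Day 30 RPMI/B27. In RPMI_glcM/B27 it measured 10.5, 11.2, 10.2 and 7.49 TPM, and in HPLM/B27 4.06, 2.11, 4.05 and 2.85 TPM. The HPLM/B27 libraries were in or below the Day 16 range, whereas all RPMI_glcM/B27 libraries were above it. Group means were 4.06 ± 0.746, 6.72 ± 2.89, 9.87 ± 1.64 and 3.27 ± 0.957 TPM (SD, n = 4). NELL1 had the fewest reads of the 3 genes, 32 to 195 per library, and stood above 44.5% of the genes tested.

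NTRK2 measured 4.97, 3.71, 5.01 and 3.90 TPM on Day 16, and 4.49, 4.68, 3.16 and 2.58 TPM in Day 30 RPMI/B27. In RPMI_glcM/B27 it measured 5.42, 5.03, 4.57 and 4.27 TPM, and in HPLM/B27 1.90, 1.80, 2.00 and 2.60 TPM. Here the Day 16 and RPMI_glcM/B27 ranges overlapped, and HPLM/B27 was the group that stood below both. Group means were 4.40 ± 0.687, 3.73 ± 1.02, 4.82 ± 0.505 and 2.08 ± 0.361 TPM (SD, n = 4), on 169 to 527 reads per library. NTRK2 stood above 31.9% of the genes tested.

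**Figure D1:**
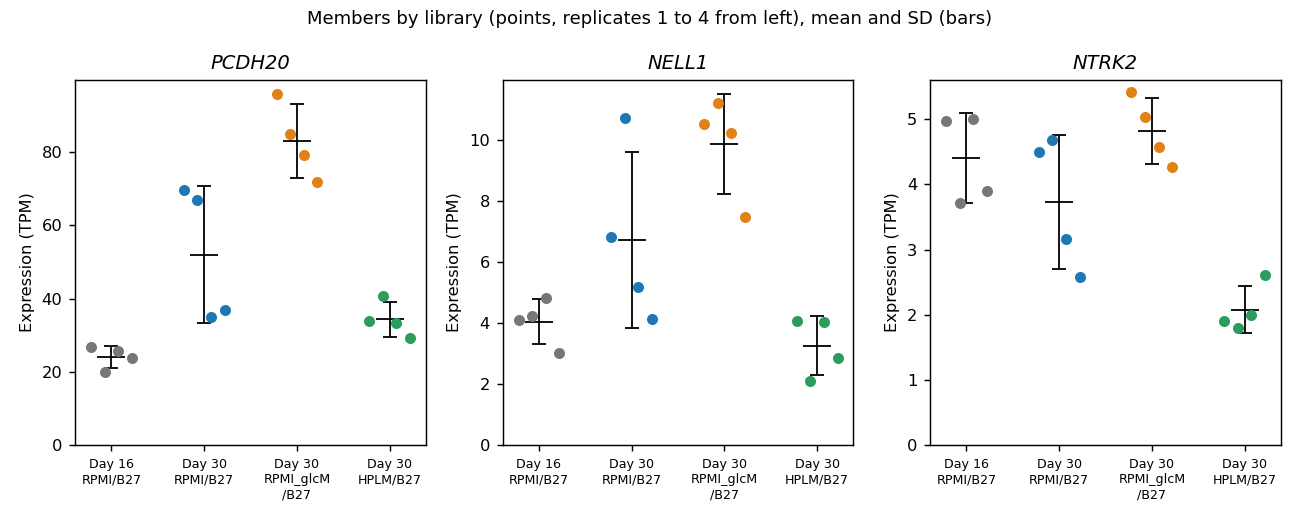
Expression of PCDH20, NELL1 and NTRK2 in TPM (vertical axes, starting at 0) in the 4 groups, with a point per library and the mean and SD of 4 libraries as bars. In each panel the 4 HPLM/B27 points lie below the 4 RPMI_glcM/B27 points, with means of 34.3 against 82.9, 3.27 against 9.87 and 2.08 against 4.82 TPM, while the place of Day 16 differs between the genes.

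Ordered by group mean, PCDH20 was lowest on Day 16, followed by HPLM/B27, Day 30 RPMI/B27 and RPMI_glcM/B27. Of these neighbours only HPLM/B27 and Day 30 RPMI/B27 overlapped. NELL1 was lowest in HPLM/B27, followed by Day 16, Day 30 RPMI/B27 and RPMI_glcM/B27, and every pair of neighbours overlapped. NTRK2 was lowest in HPLM/B27, followed by Day 30 RPMI/B27, Day 16 and RPMI_glcM/B27, again with overlap between all neighbours.

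The difference that defined the 3 genes lay between 2.32-fold and 3.02-fold. PCDH20 was 2.41 times as high in RPMI_glcM/B27 as in HPLM/B27, NELL1 3.02 times and NTRK2 2.32 times. On the log2(TPM + 1) scale, which understates the change of low genes, HPLM/B27 minus RPMI_glcM/B27 was -1.25 ± 0.20 (SE) for PCDH20, -1.36 ± 0.23 for NELL1 and -0.92 ± 0.17 for NTRK2. The nearest libraries of the groups were 40.8 and 71.8 TPM for PCDH20, 4.06 and 7.49 TPM for NELL1, and 2.60 and 4.27 TPM for NTRK2. Of the 16122 genes, 784 (4.86%) were lower in HPLM/B27 without overlap, and among these NELL1 ranked 13, PCDH20 16 and NTRK2 37 by the size of the log2 difference. The 3 genes met the same rule from different sides: of the 784 genes, 121 were also higher in RPMI_glcM/B27 than on Day 16 without overlap, as were PCDH20 and NELL1, and 387 were lower in HPLM/B27 than on Day 16 without overlap, as was NTRK2. NELL1 was also among the 99 of these genes that were lower in HPLM/B27 than in Day 30 RPMI/B27 without overlap.

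RNR1 varied within each group, so the same difference was read within libraries of like RNR1 level. Under 1000 TPM of RNR1 were replicates 1 and 2 of RPMI_glcM/B27 and replicates 2 and 3 of HPLM/B27, and the others were above. RNR1 went in part with the replicate number, since replicate 2 was under that limit and replicate 4 above it in every group. For PCDH20 the log2 difference was -1.27 below that limit and -1.23 above it. NELL1 gave -1.58 and -1.15, and NTRK2 -1.10 and -0.74. That the HPLM/B27 libraries lay below the RPMI_glcM/B27 libraries in both strata was set in advance by the rule that chose the 3 genes. RNR2, the mitochondrial 16S ribosomal RNA, took 46.2% to 48.3% of the TPM in HPLM/B27, above the 42.0% to 45.5% of RPMI_glcM/B27. After rescaling the TPM by a median-of-ratios factor per library, so that the median gene stays level, the differences were -1.18, -1.31 and -0.87 for PCDH20, NELL1 and NTRK2. Since these are bulk libraries, fewer cells of a type and less RNA per cell cannot be told apart. Summed markers of Schwann or neural crest-like cells, 8 genes of which only 1 reached the level tested and TFAP2B was at 0 in every library, were 2.33 to 3.57 TPM in HPLM/B27, below the 4.00 to 5.10 TPM of RPMI_glcM/B27. The sum of 8 epicardial-like markers, 3 of them tested, was 91.0 to 103 TPM in HPLM/B27, below the 118 to 157 TPM of RPMI_glcM/B27. Sums of neuron-like markers (5 of 12 tested, PRPH at 0 in every library) overlapped, at 28.5 to 36.3 and 25.0 to 32.7 TPM, and so did those of endothelial-like markers (1 of 9 tested), at 19.5 to 31.8 and 16.7 to 25.9 TPM. Sums of hepatic endoderm-like (6 of 9 tested), smooth muscle-like (6 of 8) and fibroblast-like markers (7 of 10) overlapped as well. No marker was called between these media, where 0.0682% of all genes tested were called. The part of these markers in the differences was not tested.

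The time in culture could be tested between groups that did not enter the choice of the genes, Day 30 and Day 16 in standard RPMI/B27. PCDH20 rose 2.16-fold, higher in 16 of 16 pairs of libraries. Its log2 fold change was 1.02 ± 0.20 (SE, adjusted p = 0.00305, limma with Benjamini-Hochberg adjustment over all genes tested), and the two-sided exact permutation p was 0.0286, the smallest that 4 against 4 libraries allow. That fit takes its spread from all 4 groups, and with only these 8 libraries in it the adjusted p was 0.035 (limma). Of the 16122 genes, 1.72% were higher on Day 30 without overlap, 2.08% passed the threshold of 0.05 as higher and 17.8% as lower. The median gene fell by 0.28 on the log2 scale, and after median-of-ratios rescaling the shares were 8.62% and 8.91% and the value for PCDH20 was 1.34 (adjusted p = 3.23e-06, limma). Without replicates 3 and 4 of Day 30 RPMI/B27, which were the lower of its 4 libraries for this gene, the log2 fold change was 1.47.

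NELL1 was higher on Day 30 in 14 of 16 pairs, with a log2 fold change of 0.55 ± 0.23 that did not pass the threshold (adjusted p = 0.0988, limma; exact permutation p = 0.0857). Relative to the other genes the change was larger, at 0.82 after median-of-ratios rescaling (adjusted p = 0.0042, limma). Without replicates 3 and 4 of Day 30 RPMI/B27, a choice made after seeing the data, it was 0.93 (adjusted p = 0.023, limma). Both fits take their spread from all 4 groups, including those that chose the gene. Over 9 alternatives the adjusted p (limma) ran from 0.0013 to 0.21 and was under 0.05 in 3. For NTRK2 the log2 difference was -0.21 ± 0.17 (adjusted p = 0.375, limma; exact permutation p = 0.343). Its sign depended on the scaling and on 2 libraries: the value was 0.052 after rescaling and 0.059 without replicates 3 and 4. Of the 3 genes, then, 1 passed the test as higher over time.

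The other Day 30 groups are set beside the same Day 16 libraries, and the comparisons therefore share them. On the log2 scale PCDH20 differed from Day 16 by 1.02 (RPMI/B27), 1.74 (RPMI_glcM/B27) and 0.49 (HPLM/B27), and none of these groups overlapped Day 16. NELL1 differed by 0.55, 1.10 and -0.26, and RPMI_glcM/B27 was the group without overlap. NTRK2 differed by -0.21, 0.11 and -0.81, and HPLM/B27 was the group without overlap. Without overlap with Day 16, 4.24% of all genes tested were higher in RPMI_glcM/B27, 3.77% were higher in HPLM/B27 and 32.1% were lower in HPLM/B27. For HPLM/B27 the rescaled values were 0.82 for PCDH20, 0.0066 for NELL1 and -0.55 for NTRK2.

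Set beside standard RPMI/B27 on Day 30, which has more glucose than either of the other media, the 3 genes had the same signs. RPMI_glcM/B27 minus RPMI/B27 was 0.73 for PCDH20, without overlap, 0.55 for NELL1 and 0.32 for NTRK2, both with overlap. HPLM/B27 minus RPMI/B27 was -0.52 for PCDH20, -0.81 for NELL1 and -0.60 for NTRK2, and here NELL1 was the gene without overlap. Among all genes tested 4.4% were higher in RPMI_glcM/B27 and 3.17% lower in HPLM/B27 than in RPMI/B27 without overlap. These values lean on replicates 3 and 4 of RPMI/B27. Without them RPMI_glcM/B27 minus RPMI/B27 was 0.27 for PCDH20, 0.17 for NELL1 and 0.06 for NTRK2, and HPLM/B27 minus RPMI/B27 was -0.98, -1.20 and -0.87, with all HPLM/B27 libraries below the other RPMI/B27 libraries for each gene.

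**Figure D2:**
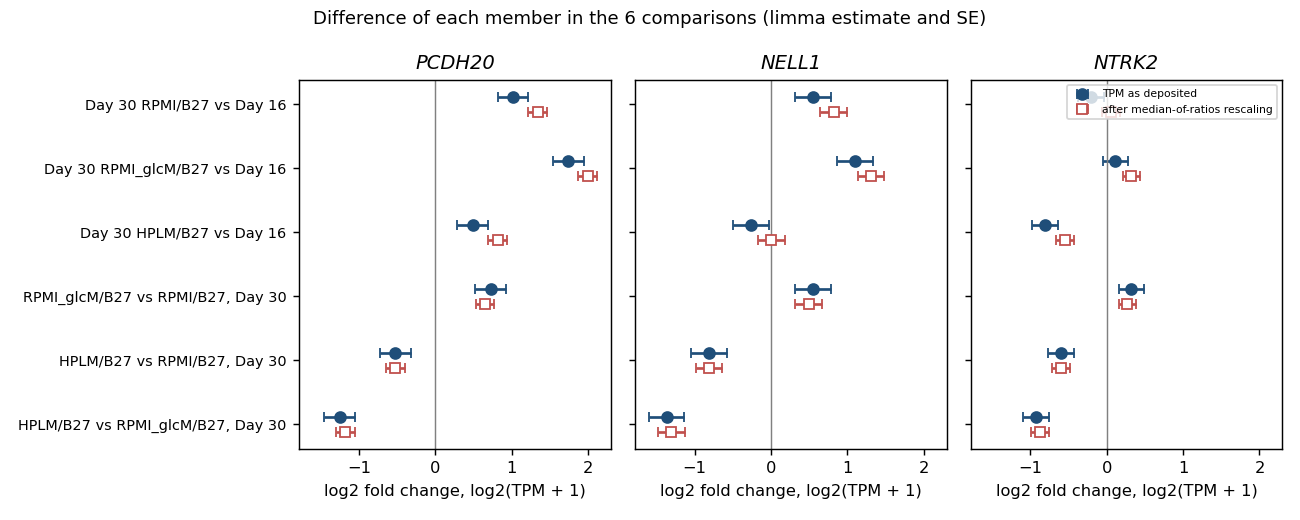
Log2 fold change on log2(TPM + 1) (horizontal axes) of PCDH20, NELL1 and NTRK2 in the 6 comparisons, as limma estimates with SE bars, from the deposited TPM (filled circles) and after median-of-ratios rescaling (open squares). The 3 genes share values of -0.87 or lower for HPLM/B27 against RPMI_glcM/B27, and differ in the comparisons with Day 16, from 1.02 for PCDH20 to -0.21 for NTRK2 in RPMI/B27.

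Within Day 30 RPMI/B27 the libraries were unlike each other. Replicates 1 and 2, with 1545 and 619 TPM of RNR1, had 69.5 and 66.7 TPM of PCDH20, and replicates 3 and 4, with 14387 and 29276 TPM of RNR1, had 35.0 and 36.8 TPM. NELL1 and NTRK2 were also lower in replicates 3 and 4 than in replicates 1 and 2. In RPMI_glcM/B27 replicates 3 and 4 had more RNR1 than replicates 1 and 2, and less PCDH20, NELL1 and NTRK2. In HPLM/B27, where replicates 1 and 4 had the most RNR1, those libraries were not both lower than replicates 2 and 3 for any of the 3 genes. The part of RNR1 in these values was not tested.

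**Figure D3:**
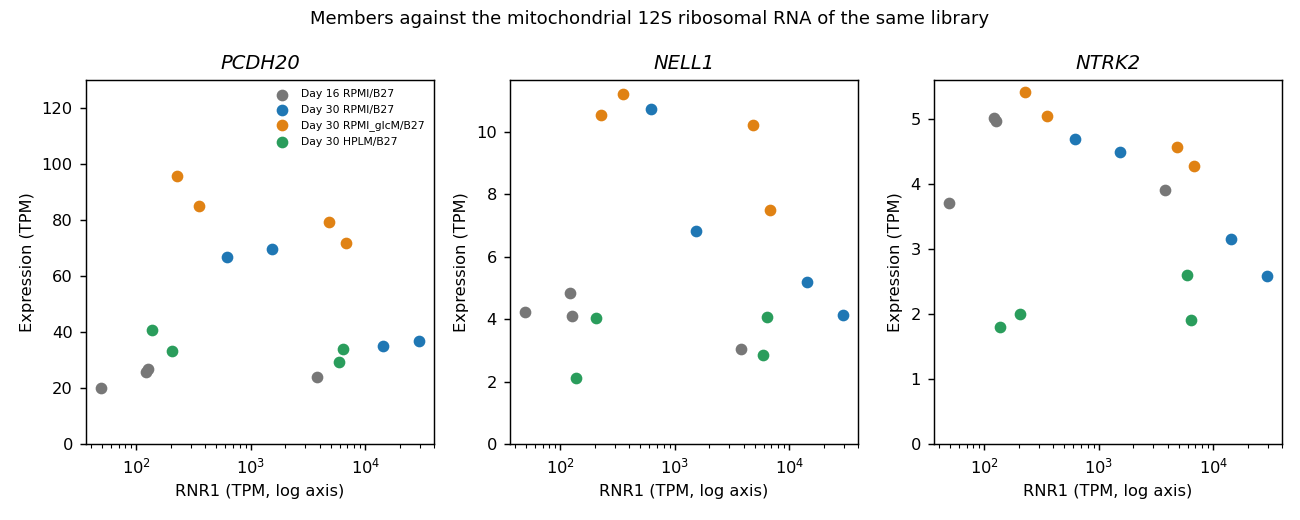
Expression of each gene in TPM (vertical axes) against the TPM of RNR1 in the same library (horizontal log axes), with a point per library coloured by group. In Day 30 RPMI/B27 the libraries with 14387 and 29276 TPM of RNR1 have the lower values of each gene. HPLM/B27 lies below RPMI_glcM/B27 at any RNR1 because the genes were chosen for that order.

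Other genes of the same families and pathways were read from 8 lists with 92 genes in the table, of which 64 were tested. Between HPLM/B27 and RPMI_glcM/B27 1 of the 64 passed the threshold, beside 0.0682% of all genes tested, and the median log2 difference was -0.09, beside -0.06 over all genes. Between Day 30 and Day 16 in RPMI/B27 3 of the 64 rose and 15 fell (median -0.28, the same as over all genes), beside 19.9% of all genes called in either direction. After median-of-ratios rescaling 10 were higher and 9 lower. Of these 18 calls, 8 held and 10 were lost without replicates 3 and 4 of Day 30 RPMI/B27, where 9.66% of all genes were called. The 10 were SORT1, ROBO2, PRKCA and 7 of the adaptor, processing and trafficking genes. With only the 2 compared groups in the fit 6 of the 18 held, for NGFR, SORL1, PIK3R1, ROBO1, BMP2 and MSX2. The calls given next are from the deposited TPM unless rescaling is named, and refer to that comparison and to the 3 between the Day 30 media.

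Of the ligands of the neurotrophin receptors, NTF4, which binds TrkB, was the only 1 of 4 at the level tested. Its means were 3.53 and 3.72 TPM on Day 16 and Day 30 in RPMI/B27, and 2.90 and 2.47 TPM in the low-glucose and plasma-like media, with overlap between the groups and no call. BDNF, the other TrkB ligand, averaged 1.38 ± 0.25 TPM on Day 16, 0.52 ± 0.18 in RPMI_glcM/B27 and 0.58 ± 0.24 in HPLM/B27 (SD, n = 4), which is 10 to 61 reads per library. NTF3 had at most 11 reads in a library. NTRK3, the receptor for NTF3, had at most 2 reads in any library, where NTRK2 had at least 169.

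The co-receptor NGFR (p75), which binds all neurotrophins, measured 6.55, 3.37, 6.04 and 6.32 TPM on Day 16 and 0.639, 1.25, 2.20 and 0.645 TPM in Day 30 RPMI/B27. It fell by 1.61 on the log2 scale (adjusted p = 0.00029, limma), with 8 to 54 reads in the Day 30 libraries, and it averaged 1.20 TPM in RPMI_glcM/B27 and 1.57 TPM in HPLM/B27. SORL1, a sorting receptor of the same family as sortilin, fell by 1.13 from 7.09 to 2.66 TPM (adjusted p = 0.0018, limma). SORT1 (sortilin), the receptor that pairs with NGFR for pro-neurotrophins, fell by 0.56 (adjusted p = 0.029, limma) and SORCS3 by 0.74 (adjusted p = 0.013, limma), but after rescaling neither passed the threshold, and without replicates 3 and 4 of Day 30 RPMI/B27 the value for SORT1 was -0.25 (adjusted p = 0.23, limma). SORCS1 and SORCS2 did not pass it in the deposited or the rescaled TPM. No gene of this list was called between the media on Day 30 with all libraries, although after rescaling SORL1 was lower in RPMI_glcM/B27 than in RPMI/B27 (adjusted p = 0.016, limma) and than in HPLM/B27 (adjusted p = 0.049, limma).

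Of 24 adaptor, processing and trafficking genes tested, 2 rose and 6 fell over time in RPMI/B27, beside 2.08% and 17.8% of all genes. After rescaling 6 were higher and 3 lower, beside 8.62% and 8.91%, and without replicates 3 and 4 of Day 30 RPMI/B27 3 were higher and 0 lower. PIK3R1, the regulatory subunit of PI3-kinase, rose by 0.86 ± 0.15 from 21.2 to 39.3 TPM (adjusted p = 0.001, limma). The adaptors SHC1 and CRKL fell by 0.60 and 0.69 (adjusted p = 0.032 and 0.014, limma), and FURIN, a protease that cleaves pro-neurotrophins, fell by 0.62 (adjusted p = 0.022, limma). Without those 2 libraries their differences were -0.26, -0.32 and -0.32 (adjusted p = 0.38, 0.17 and 0.28, limma). None of the 24 was called between the media in the deposited TPM with all libraries. After rescaling 1 was higher and 3 lower in RPMI_glcM/B27 than in RPMI/B27, where 12.1% of all genes were called. For HPLM/B27 against RPMI/B27 it was also 1 higher and 3 lower, where 12.9% were called. Without replicates 3 and 4 of RPMI/B27, 5 were lower in RPMI_glcM/B27 and 7 in HPLM/B27, where 10.4% and 20.9% were called.

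Among the non-clustered protocadherins PCDH7 was the most abundant, at 84.0 to 125 TPM by group mean, above PCDH20, and it was not called over time in RPMI/B27 or between the Day 30 media with all libraries. PCDH17 passed the test between HPLM/B27 and RPMI/B27: it measured 7.79, 7.79, 8.54 and 9.33 TPM in HPLM/B27 and 5.57, 4.16, 2.88 and 2.62 TPM in RPMI/B27. That is a log2 difference of 1.00 ± 0.18 (adjusted p = 0.0064, limma), opposite in sign to the -0.52 of PCDH20, and 2.41% of all genes were called in that comparison. The call was lost with only these 2 groups in the fit (adjusted p = 0.084, limma), and without replicates 3 and 4 of RPMI/B27 the difference was 0.68 (adjusted p = 0.013, limma). PCDH9, the next gene tested beyond PCDH20 at 4887 kb, averaged 2.08 TPM on Day 16 and 3.48, 5.95 and 5.40 TPM on Day 30 with standard RPMI, RPMI_glcM and HPLM. The last pair differed by -0.12 ± 0.18 on the log2 scale (adjusted p = 0.97, limma), where PCDH20 differed by -1.25. After rescaling PCDH9 rose over time in RPMI/B27 by 0.73 (adjusted p = 0.00035, limma). It then exceeded RPMI/B27 in RPMI_glcM/B27 (adjusted p = 0.0028, limma) and HPLM/B27 (adjusted p = 0.0045, limma). PCDH17 did so in RPMI_glcM/B27 as well (adjusted p = 0.0036, limma). Without replicates 3 and 4 of RPMI/B27 PCDH9 was called over time but not between the media. PCDH10 and PCDH18 averaged under 4 TPM in every group and had no call in the 4 comparisons, and 6 further members of the list stayed under the level tested. Of 14 clustered beta protocadherins tested none was called in these comparisons. After rescaling 2 of them were higher over time and 1 was lower in HPLM/B27 than in RPMI/B27, and 6 were lower in the latter comparison without replicates 3 and 4 of RPMI/B27, where 20.9% of all genes were called.

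The receptors and binding partners of NELL1 were tested for 7 of 10 genes. ROBO2, a roundabout receptor of the family that binds NELL proteins and SLIT ligands, had a pattern of its own. It measured 6.36, 5.37, 4.67 and 4.77 TPM on Day 16, and 3.11, 3.96, 1.86 and 1.72 TPM in Day 30 RPMI/B27. It measured 5.90, 6.68, 4.41 and 4.80 TPM in RPMI_glcM/B27, and 2.44, 3.40, 2.94 and 1.15 TPM in HPLM/B27. As with the 3 chosen genes, HPLM/B27 did not overlap RPMI_glcM/B27, at a log2 difference of -0.92 ± 0.23 that passed after rescaling (adjusted p = 0.022, limma, where 1.63% of all genes were called) but not before (adjusted p = 0.19). Over time in RPMI/B27 it fell by 0.82 (adjusted p = 0.022, limma), and the value was -0.47 without replicates 3 and 4 of Day 30 RPMI/B27 (adjusted p = 0.28, limma). ROBO1 fell by 1.46 over time, from 33.0 to 11.5 TPM (adjusted p = 6.7e-05, limma), and averaged 8.77 TPM in RPMI_glcM/B27 and 8.81 TPM in HPLM/B27. PRKCA, a protein kinase C, fell by 0.52 over time (adjusted p = 0.034, limma) but did not pass after rescaling or without those libraries (-0.27, adjusted p = 0.32, limma). ITGB1, the beta-1 integrin subunit through which NELL1 binds cells, averaged 348 to 480 TPM, and ITGB1, ITGA3, ATRAID and PRKCB were not called in the 4 comparisons, although after rescaling, and without replicates 3 and 4 of RPMI/B27, ITGB1 was lower in RPMI_glcM/B27 than in RPMI/B27, and without those libraries it was also lower in HPLM/B27. NELL2, the paralog of NELL1, averaged 1.06 ± 0.25 TPM in Day 30 RPMI/B27 and 0.41 to 0.42 TPM in the other groups, with 2 to 41 reads per library.

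Of the bone-related genes downstream of or beside NELL1, SPP1 (osteopontin, a secreted matrix protein) passed the test between the media. It had 20, 20, 22 and 15 reads in HPLM/B27 and 2, 2, 3 and 1 reads in RPMI_glcM/B27, opposite in direction to NELL1. The log2 difference of HPLM/B27 minus RPMI_glcM/B27 was 1.32 ± 0.21 (adjusted p = 0.022, limma). With 1 of the 16 libraries left out at a time the difference was 1.26 to 1.40 and passed in 8 of 16 fits; it did not pass when any library of the 2 media was left out (adjusted p up to 0.10, limma). Per recovered read the summed counts, 77 against 8, gave a ratio of 7.46 (exact 95% interval 3.60 to 17.9, for counting error only). RPMI_glcM/B27 was also below RPMI/B27 for SPP1 (log2 difference -1.67, adjusted p = 0.00042, limma), in a comparison where 2.2% of all genes were called. BMP2 and MSX2, a bone morphogenetic protein and a homeobox factor of the same programme, fell by 1.17 and 1.64 over time (adjusted p = 0.00034 and 4.3e-06, limma), from 119 to 53.1 and from 29.3 to 8.74 TPM. THBS4, a thrombospondin, rose by 0.48 to 4.38 TPM (adjusted p = 0.0495, limma). Between HPLM/B27 and RPMI_glcM/B27 BMP2, MSX2 and THBS4 had log2 differences of -0.11, 0.25 and 0.21 and no call.

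**Figure D4:**
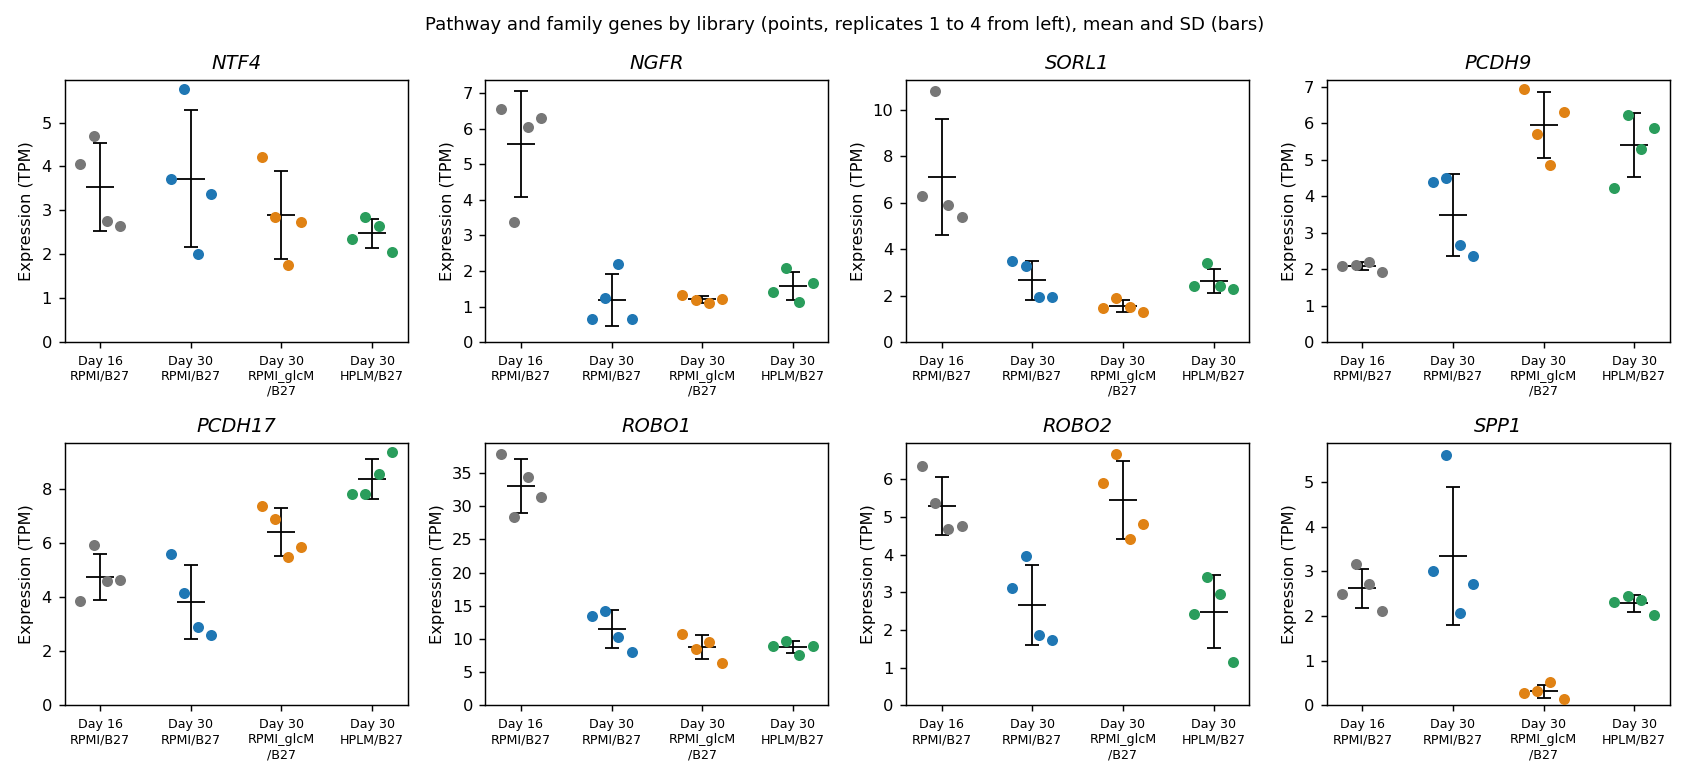
Expression in TPM (vertical axes, starting at 0) of 8 genes of the NTRK2, PCDH20 and NELL1 families and pathways, with a point per library and the mean and SD of 4 libraries as bars. NGFR, SORL1 and ROBO1 are highest on Day 16, PCDH17 is highest in HPLM/B27, SPP1 is at or under 0.52 TPM in RPMI_glcM/B27, and ROBO2 averages 5.45 TPM in RPMI_glcM/B27 against 2.48 TPM in HPLM/B27.

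The nearest genes tested on either side of each gene were TDRD3 and PCDH9 for PCDH20, PRMT3 and ANO5 for NELL1, and SLC28A3 and AGTPBP1 for NTRK2. None of the 6 was called between HPLM/B27 and RPMI_glcM/B27, where 0.0682% of all genes tested were called. Their log2 differences lay between -0.22 for PRMT3 and 0.10 for TDRD3.

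Likeness of pattern was measured by Pearson's r of log2(TPM + 1) over the 16 libraries, which share groups and composition, among the 9752 genes that averaged 5 TPM or more. Among the 5 genes most like PCDH20 were PPP1R1A, an inhibitor of protein phosphatase 1 (r = 0.92), FZD1, a WNT receptor (0.92), TNNI1, the slow skeletal troponin I of the fetal heart (0.88), and MFAP4, a microfibril protein (0.88). PPP1R1A averaged 69.9 TPM on Day 16 and 125, 168 and 109 TPM on Day 30 with standard RPMI, RPMI_glcM and HPLM, and MFAP4 7.14, 26.7, 28.5 and 11.4 TPM in the same order. These 4 genes had the PCDH20 order of a lowest mean on Day 16 and a highest in RPMI_glcM/B27.

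The genes most like NELL1 were AMD1, an enzyme of polyamine synthesis (r = 0.87), TAFA2, BCL11A, KIAA0319 and HMGN3 (0.84 to 0.85). AMD1 averaged 44.7, 49.7, 60.6 and 38.6 TPM in the same order of groups. Those most like NTRK2 were LOC105377855 (0.93), THUMPD1 (0.89), NXPH2, a neurexophilin (0.87), LOC107984120 (0.87) and ADAMTS6, a metalloprotease (0.86). NXPH2 averaged 16.6, 11.6, 11.1 and 4.06 TPM, and ADAMTS6 18.9, 18.3, 19.0 and 12.0 TPM, lowest in HPLM/B27 as NTRK2 was. By Spearman's rho 1, 3 and 2 of the 5 genes stayed among the first 5 for PCDH20, NELL1 and NTRK2. Among the 3 genes themselves r was 0.82 for PCDH20 with NELL1, 0.70 for NELL1 with NTRK2 and 0.41 for PCDH20 with NTRK2. These values include the libraries by which all 3 genes were chosen for the same direction, so a positive r is in part built in.

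**Figure D5:**
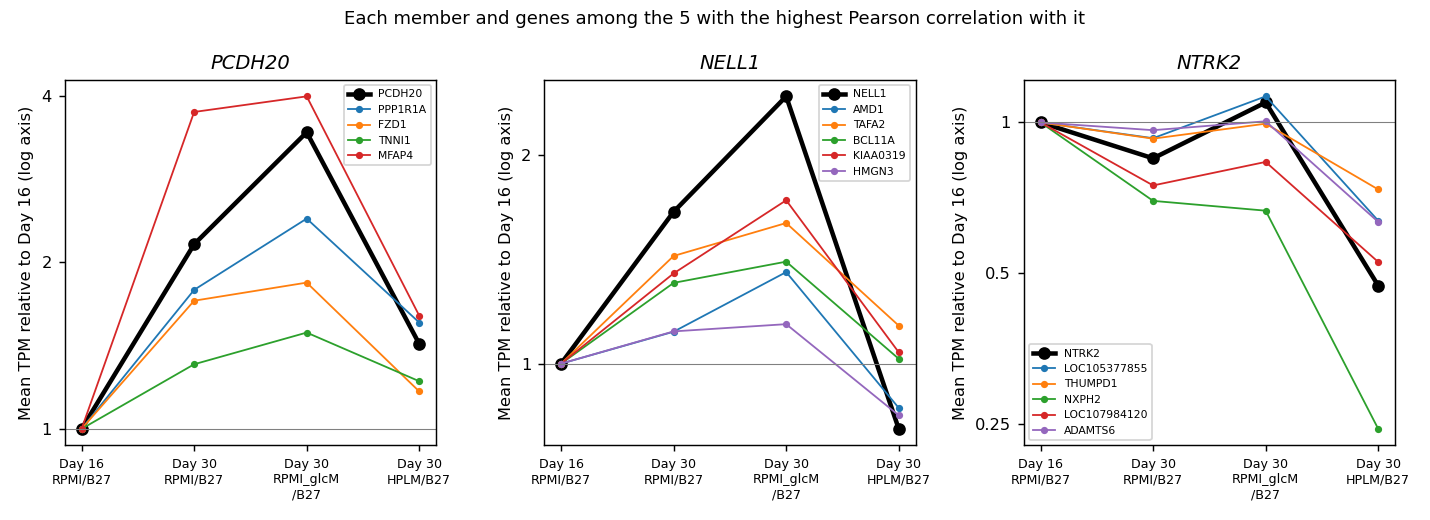
Group means of PCDH20, NELL1 and NTRK2 (thick black lines) and of genes among the 5 with the highest Pearson correlation with each (4 for PCDH20, 5 for the others), divided by the mean on Day 16 (vertical log axes). The lines of the PCDH20 and NELL1 panels peak in RPMI_glcM/B27, where PCDH20 averages 82.9 and NELL1 9.87 TPM, and those of the NTRK2 panel are lowest in HPLM/B27, where NTRK2 averages 2.08 TPM.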

How the data were processed

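The 16 libraries of WTC11 hPSC-CMs were sequenced from total RNA. Per the labels and the study's methods, the authors used the stranded Takara SMARTer HI Mammalian kit, STAR 2.5.3a on hg38 plus decoys, featureCounts 2.0.3 and R 4.1.3. The authors deposited TPM (counts per gene length, scaled to 1000000 per library) for 43388 genes; the tool and gene lengths behind them are not given in the sources used here, and deposited counts were not used here. A TPM depends on all other genes of its library, so a rise of ribosomal RNA lowers the rest.

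The 16122 genes that averaged 1 TPM or more were fitted on the log2(TPM + 1) scale (limma 3.58.1, R 4.3.3, lmFit and trended eBayes, 4 groups). P-values were adjusted by Benjamini-Hochberg per comparison, and an adjusted p under 0.05 was a call. PCDH20, NELL1 and NTRK2, the 8 lists and the marker lists were chosen with earlier results of these data known. Named beside them were the 5 most correlated genes each, the neurotrophin ligands and receptors, non-clustered protocadherins and NELL1 partners of at least 1 TPM, up to 4 called genes of each other list, and the nearest genes tested, apart from some that are not reported here. BDNF, NTF3, NTRK3 and NELL2, under that level, were named after their values were seen. Single genes were also compared by two-sided exact permutation of 4 against 4 libraries.

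Ratios between libraries of each gene's TPM gave whole reads (within 0.02 reads) for all 31047 genes above 0, giving 7744768 to 16183655 reads per library. Alternatives were a pseudocount of 0.1, all genes above 0, at least 5 TPM, median-of-ratios rescaling, the 2 compared groups alone, a replicate block, limma-voom on recovered reads and each library left out. RNR1 as a covariate, the fit without replicates 3 and 4 of Day 30 RPMI/B27 and the split at 1000 TPM of RNR1 were chosen after seeing the data. Code was tested on simulated data. Sequences came from RefSeq windows (GRCh38.p14), hg38 with GENCODE v44 and the study's primer list.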

Additional observations from a re-analysis of the deposited data

Results flagged for a closer look

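Among 120 groups of 4 libraries, covering PCDH20, NELL1, NTRK2 and the named pathway genes, 6 held a library far from the other 3 by Dixon's criterion at 95%. Chance gives about 1 in 20, so this number is no larger than chance gives. None was in PCDH20, NELL1 or NTRK2. On Day 16, replicate 2 was low for NGFR (3.37 TPM, others 6.04 to 6.55) and high for SORL1 (10.8 TPM, others 5.40 to 6.29) and THBS4 (3.89 TPM, others 2.39 to 2.58), and replicate 4 was low for SHC1 (23.9 TPM, others 32.5 to 32.9). SORL1 was also high in replicate 2 of HPLM/B27 (3.41 TPM, others 2.29 to 2.42). In Day 30 RPMI/B27, PCDH7 was low in replicate 4, which had the most RNR1 (79.9 TPM, others 113 to 115).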

How the results depend on the processing

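The rise of PCDH20 over time in RPMI/B27 kept its direction and its side of the threshold in all 9 alternatives (1.02 to 1.47) and with each library left out (0.86 to 1.18). NELL1 (main 0.55) passed at 0.82 after median-of-ratios rescaling, 1.03 with limma-voom and 0.93 without replicates 3 and 4 of Day 30 RPMI/B27, and was 0.33 to 0.72 with each library left out. NTRK2 (main -0.21) changed sign under the same settings, to 0.052, 0.086 and 0.059, was -0.31 to -0.083 with each library left out, and had no value among genes of at least 5 TPM. Rescaling moved the HPLM/B27 against Day 16 differences to 0.82 for PCDH20 and -0.55 for NTRK2. For NELL1 that difference went from -0.26 to 0.0066, a change of sign. Rescaling also moved RPMI_glcM/B27 against Day 16 from 1.74 to 1.99 for PCDH20, from 1.10 to 1.31 for NELL1 and from 0.11 to 0.32 for NTRK2. Between the Day 30 media the differences of the 3 genes kept their sign under rescaling. With each library left out all differences of the 3 genes between groups kept their sign. Their size depends on the pseudocount, since the log2(TPM + 1) scale understates the change of low genes. Leaving out replicates 3 and 4 of RPMI/B27 moved RPMI_glcM/B27 minus RPMI/B27 from 0.73 to 0.27 for PCDH20, and HPLM/B27 minus RPMI/B27 from -0.52 to -0.98 for PCDH20 and from -0.81 to -1.20 for NELL1. Only relative statements are available, since TPM carry no absolute amount, and the cause of these changes was not tested.

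Counts of called pathway genes depended on the setting, and so did the share of all genes called. Over time in RPMI/B27 18 were called, 6 with only the compared groups in the fit, 10 with RNR1 as a covariate, and 8 to 22 with each library left out. Of all genes tested 19.9% were called, 6.19% with only the compared groups and 8.59% with RNR1. Between RPMI_glcM/B27 and RPMI/B27 1 was called, 0 at 5 TPM or more, 13 after rescaling, 16 with limma-voom, 7 with RNR1, 12 without replicates 3 and 4, and 1 to 3 with each library left out. The shares of all genes were 2.2% in the main fit, 12.1% after rescaling, 4.51% with RNR1 and 10.4% without replicates 3 and 4. Between HPLM/B27 and RPMI/B27 1 was called, 7 after rescaling, 0 with the compared groups alone, 11 with limma-voom, 5 with RNR1, 21 without replicates 3 and 4, and 1 to 4 with each library left out. Here the shares were 2.41%, 12.9% after rescaling, 0.502% with the compared groups, 6.85% with RNR1 and 20.9% without replicates 3 and 4. Between HPLM/B27 and RPMI_glcM/B27 1 was called, 0 at 5 TPM or more, 3 after rescaling, 4 with limma-voom, 2 with RNR1, and 0 to 1 with each library left out. The shares of all genes were 0.0682% in the main fit, 1.63% after rescaling and 0.564% with RNR1.

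The replicate numbers were not used to pair the samples, since a correlation above 0.1 was required of every same-numbered pair of libraries: 11 of 24 such pairs had one (median r = 0.080), as had 12 of 72 differently numbered pairs (median r = -0.034). With the replicate block the counts of called pathway genes were 23, 3, 3 and 2, and the log2 fold changes over time stayed at 1.02, 0.55 and -0.21.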
